A study of Mus musculus with 8 samples.

Results

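The collagen genes of cultured mouse myotubes were described here, after Cre-mediated deletion of *RhoA*, the gene of a small GTPase that controls the actin cytoskeleton. A gene was counted as a collagen gene when its symbol on the array platform was Col, a number, the letter a and a number, as in *Col1a1*. The value table held 42 such genes of 19505 genes with a symbol, and each of the 42 was read by 1 row of the array. The rule used only symbols, but the collagen family itself was chosen with earlier results of these data known.

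Collagens are extracellular proteins wound from chains that each have a gene of their own. Fibrillar chains build the fibrils of connective tissue, type IV chains form the network of the basement membrane that wraps each muscle fibre, and type VI chains form microfibrils that link these structures. In muscle most interstitial collagen is made by fibroblastic cells, whereas muscle cells themselves make chains such as the transmembrane collagens of the neuromuscular junction.

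All cells came from *RhoA* flox/flox mice that also carried the Pax7-nGFP transgene, which marks satellite cells, the stem cells of muscle. Satellite cells were sorted by flow cytometry from hindlimb muscle, expanded as myoblasts and differentiated on a Matrigel-coated surface, a basement membrane extract that itself contains collagen protein. At day 3 of differentiation the cultures received an adenovirus for 48 hours. In the Adeno CRE m-cherry group (4 arrays) the virus carried Cre recombinase and the red fluorescent protein mCherry, so that the floxed allele could be removed, and in the Adeno m-cherry group (4 arrays) it carried mCherry without Cre. Presence of Cre and loss of *RhoA* cannot be told apart in this comparison. Replicates 1 to 4 stand in the labels of each group while the study's methods speak of fewer independent cultures than that, so p-values measure the spread between these arrays, part of which may be technical. With 4 arrays per group, the number of arrays limits the precision. Values are RMA summaries on the log2 scale, where a difference of 1 is a 2-fold change. Each gene has its own probes, so amounts of RNA cannot be compared between genes on this scale. The odorant receptor levels used below only describe how dim rows read and do not measure an amount.

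*RhoA* read 9.99, 10.87, 10.87 and 10.23 in replicates 1 to 4 of Adeno CRE m-cherry, against 11.16, 11.39, 11.08 and 11.39 in Adeno m-cherry. The groups did not overlap, with a log2 fold change of -0.77 and an adjusted p of 0.729. All 10 myotube markers examined, such as *Acta1* and *Myog*, had means over the 8 arrays above the 95th percentile of the odorant receptor genes. These 1080 sensory genes, not known from muscle, served to show how dim rows read (5th percentile 2.96, median 3.68 and 95th percentile 4.93). Of 6 satellite cell and myoblast markers 4 (*Myf5*, *Myod1*, *Cdh15* and *Vcam1*) were above that percentile as well. Of 11 fibroblast markers 2 (*Lum* and *Gsn*) were above it, and 0 of 6 macrophage, 0 of 6 endothelial and 0 of 2 Schwann cell markers were. The mean level of the fibroblast list was 4.57 to 4.83 across the Adeno CRE m-cherry arrays and 4.46 to 5.05 across the Adeno m-cherry arrays. Arrays of the same replicate number resembled each other across the groups, and principal component 1 (38.7% of the variance) separated replicates 1 and 2 from replicates 3 and 4.

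Most collagen genes read slightly lower after Cre, and few of them by more than the spread between arrays. Log2 fold changes were below 0 for 34 of the 42 collagen genes (81.0%) and above 0 for 8, where 49.7% of all genes were below 0. The median log2 fold change was -0.15 for the collagen genes, 0 for all genes and 0.08 for the odorant receptor genes. At the thresholds of the study, a 1.2-fold or larger change with p under 0.05 before adjustment, 3 collagen genes were lower (7.14% of 42, against 3.5% of all genes) and 0 were higher (against 2.92% of all genes). These 3 were *Col4a6*, *Col27a1* and *Col6a2*. After adjustment over all genes 0 collagen genes had an adjusted p under 0.05 in limma (0% of all genes did), and 3 had an unadjusted p under 0.05. The smallest adjusted p among them was 0.748.

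With the replicate number as a block in the fit, which compares each Adeno CRE m-cherry array with the Adeno m-cherry array of its own number, 6 collagen genes passed the same thresholds and were lower (14.3%, against 8.2% of all genes). The added genes were *Col25a1*, *Col8a1* and *Col5a2*. Again 0 were higher (against 6.54% of all genes), and 0 had an adjusted p under 0.05 (against 0.323% of all genes), the smallest being 0.0872 for *Col25a1*. Within the replicate numbers, 8 collagen genes were lower in all 4 (19.0%, against 11.1% of all genes) and 2, *Col5a3* and *Col6a6*, were higher in all 4 (4.76%, against 9.88%). The 4 values of the groups did not overlap for 0 collagen genes, while they did not overlap for 3.75% of all genes.

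The lower readings were not spread evenly over the replicate numbers. In replicate 1, 32 of 42 collagen genes were lower in Adeno CRE m-cherry and the median difference was -0.21. In replicate 2, 29 were lower with a median of -0.20, in replicate 3, 23 were lower with a median of -0.13, and in replicate 4, 23 were lower with a median of -0.10. Over all genes the median difference was -0.02 in replicate 1 and 0 in each of the others.

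**Figure D1:**
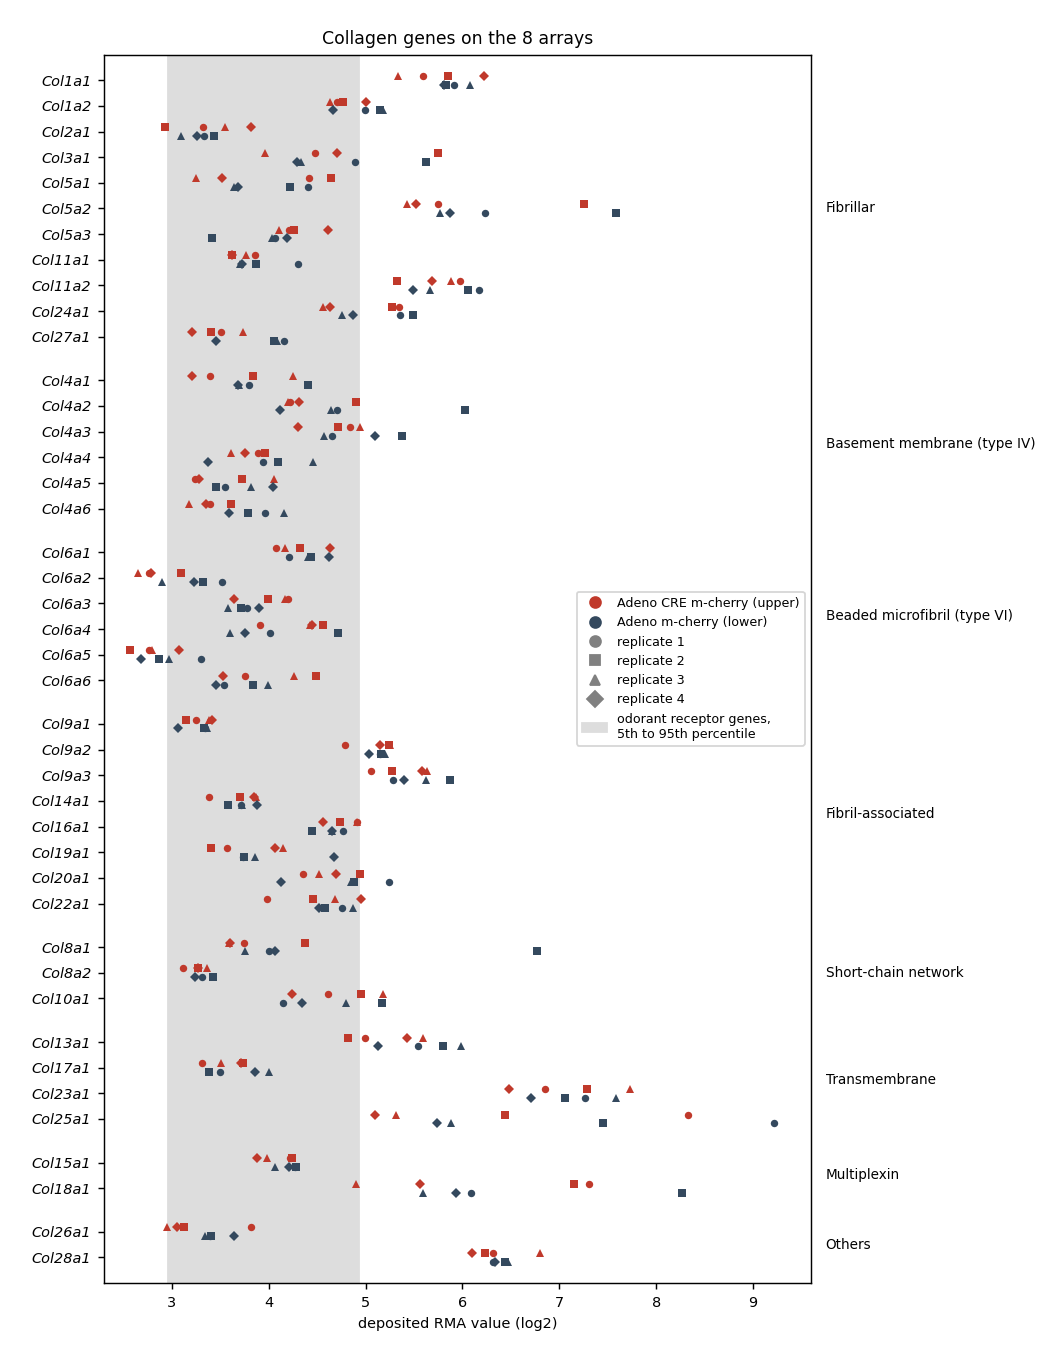
RMA values (log2, x axis) of the 42 collagen genes (rows, grouped by class) on the 8 arrays, with Adeno CRE m-cherry in red above Adeno m-cherry in dark blue and a symbol for each replicate number. The grey band runs from 2.96 to 4.93, the 5th to 95th percentile of odorant receptor genes, and holds the means of most collagen genes, while *Col25a1* and *Col5a2* show symbols of the same replicate number lying near each other in both groups.

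The array read most collagen genes at a low level. The mean over 8 arrays exceeded the 95th percentile of the odorant receptor genes for 11 collagen genes, which were *Col1a1*, *Col5a2*, *Col11a2*, *Col24a1*, *Col9a2*, *Col9a3*, *Col13a1*, *Col23a1*, *Col25a1*, *Col18a1* and *Col28a1*. All 11 had a log2 fold change below 0, with a median of -0.16. All genes of the array at or above the median level had a median of -0.028. Without the block 0 of the 11 passed the thresholds (against 3.5% of all genes lower), and with it 2 did (18.2%, against 8.2% of all genes). The means of the other 31 lay below that percentile, among them *Col3a1*, *Col1a2*, *Col4a1*, *Col4a2* and all 6 type VI chains. The 3 genes past the thresholds without the block were all among these 31, as was *Col8a1*. Of the 31, 23 were lower and the median was -0.15. In RNA of whole cultures, fewer cells making a chain and less RNA per cell cannot be told apart.

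Of the 11 fibrillar chains 9 read lower (81.8%, against 49.7% of all genes), and the median of their log2 fold changes was -0.16. *Col27a1* was the only one past the thresholds without the block (9.09% of the 11, against 3.5% of all genes lower). *Col1a1* and *Col1a2* encode the chains of type I collagen, the main fibril of muscle connective tissue and tendon. *Col1a1* read 5.59, 5.85, 5.33 and 6.22 in Adeno CRE m-cherry, against 5.91, 5.83, 6.08 and 5.81 in Adeno m-cherry. *Col1a2* read 4.71, 4.77, 4.63 and 5.0 in Adeno CRE m-cherry, against 4.99, 5.15, 5.18 and 4.66 in Adeno m-cherry. For both chains the groups overlapped, and Adeno CRE m-cherry held the higher value of replicate 4. The log2 fold change was -0.16 for *Col1a1* (95% confidence interval -0.63 to 0.31) and -0.22 for *Col1a2* (-0.61 to 0.18).

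*Col3a1*, the chain of type III collagen in fine reticular fibrils, read 4.48, 5.75, 3.96 and 4.71 in Adeno CRE m-cherry, against 4.89, 5.62, 4.33 and 4.29 in Adeno m-cherry. Replicate 2 was the highest array of each group, and the groups differed by -0.06 (95% confidence interval -0.99 to 0.88). Type V collagen starts the assembly of type I fibrils, and its chains differed among themselves. *Col5a1* read 4.42, 4.64, 3.25 and 3.52 in Adeno CRE m-cherry, against 4.41, 4.22, 3.64 and 3.68 in Adeno m-cherry, a log2 fold change of -0.03. *Col5a2* read 5.75, 7.25, 5.43 and 5.52 in Adeno CRE m-cherry, against 6.23, 7.58, 5.77 and 5.87 in Adeno m-cherry. Replicate 2 was again the highest of both groups, and within every replicate number the Adeno CRE m-cherry array was the lower, with differences of -0.48, -0.33, -0.34 and -0.35. The *Col5a2* log2 fold change was -0.38 (SE 0.50 without the block, adjusted p 0.912, and SE 0.17 with it, adjusted p 0.335). It was 0.03 without Adeno m-cherry replicate 2, and with the block it passed the thresholds in 0 of the 4 fits that left out a replicate number. *Col5a3* was higher in Adeno CRE m-cherry in all 4 replicate numbers, by 0.14, 0.85, 0.08 and 0.42, with a log2 fold change of 0.37 (SE 0.21, adjusted p 0.791).

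*Col27a1*, a fibrillar chain best known from cartilage, read 3.51, 3.40, 3.73 and 3.21 in Adeno CRE m-cherry, against 4.16, 4.05, 4.09 and 3.46 in Adeno m-cherry. Replicate 4 was the lowest array of both groups, and the Adeno m-cherry array of replicate 4 was the only one to fall among the Adeno CRE m-cherry values. The mean was 3.46 ± 0.22 in Adeno CRE m-cherry and 3.94 ± 0.32 in Adeno m-cherry (SD, n = 4 each). Its log2 fold change was -0.48 (SE 0.20, adjusted p 0.760). It passed the thresholds in 3 of the 12 fits that left out an array or a replicate number. The other fibrillar chains, *Col2a1*, *Col11a1*, *Col11a2* and *Col24a1*, had log2 fold changes between -0.18 and 0.13. *Col24a1*, a chain of developing bone, was lower within every replicate number, with differences of -0.24 to -0.02.

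All 6 type IV chains had a log2 fold change below 0, with a median of -0.22. *Col4a1* and *Col4a2* lie head to head in the genome and form the network found in nearly all basement membranes. Both were highest in Adeno m-cherry replicate 2, and they differed in which replicate numbers were lower in Adeno CRE m-cherry. *Col4a1* read 3.39, 3.84, 4.25 and 3.21 in Adeno CRE m-cherry, against 3.80, 4.41, 3.69 and 3.68 in Adeno m-cherry. *Col4a2* read 4.22, 4.90, 4.20 and 4.31 in Adeno CRE m-cherry, against 4.70, 6.03, 4.64 and 4.12 in Adeno m-cherry. *Col4a1* was the lower in Adeno CRE m-cherry in replicates 1, 2 and 4, and *Col4a2* in replicates 1, 2 and 3. Their log2 fold changes were -0.22 (SE 0.27, adjusted p 0.904) and -0.46 (SE 0.38, adjusted p 0.851), and the *Col4a2* difference of -1.13 in replicate 2 rests on an Adeno m-cherry array that stood above the other 7.

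*Col4a6*, a chain of the basement membranes around smooth muscle, read 3.39, 3.61, 3.18 and 3.35 in Adeno CRE m-cherry, against 3.96, 3.79, 4.16 and 3.59 in Adeno m-cherry. Only Adeno CRE m-cherry replicate 2 reached into the range of the other group, where it lay just above Adeno m-cherry replicate 4. The mean was 3.38 ± 0.18 in Adeno CRE m-cherry and 3.87 ± 0.24 in Adeno m-cherry (SD, n = 4 each). The log2 fold change was -0.49 (SE 0.18, adjusted p 0.748, 0.271 with the block). The two-sided exact permutation test gave p = 0.0571, where 4 arrays against 4 cannot go below 0.0286. For *Col27a1* and *Col6a2*, also past the thresholds without the block, the same permutation test gave p = 0.0857 and p = 0.0571. This test does not use the replicate numbers. *Col4a6* passed the thresholds in 7 of 12 fits that left out an array or a replicate number, and not without replicate 1, replicate 3, Adeno CRE m-cherry replicate 3, Adeno m-cherry replicate 1 or Adeno m-cherry replicate 3. The log2 fold change was between -0.60 and -0.33 in these fits. Its head-to-head neighbour *Col4a5* had a log2 fold change of -0.15, with differences of -0.31, 0.26, 0.23 and -0.76 by replicate number. *Col4a3* and *Col4a4*, chains of the kidney filter in particular, had log2 fold changes of -0.22 and -0.16.

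**Figure D2:**
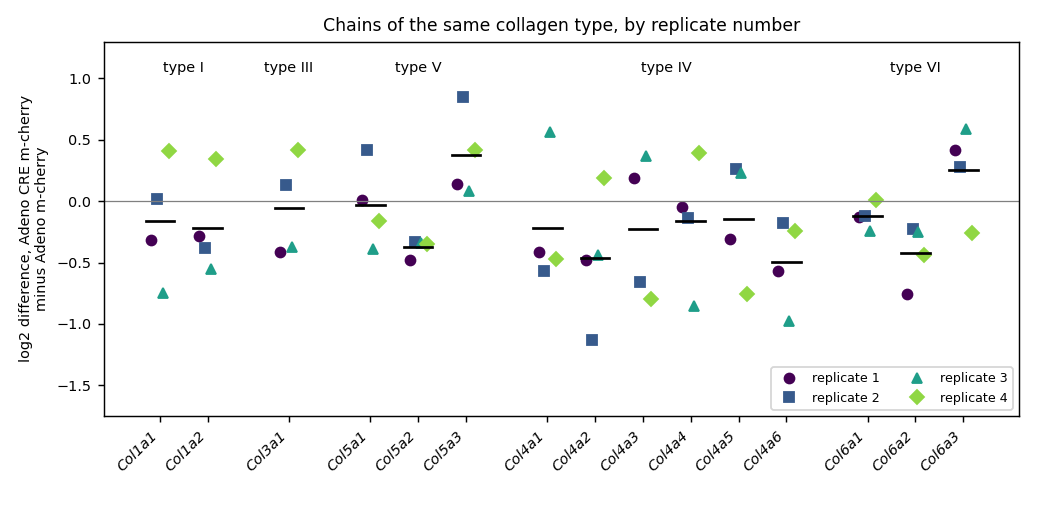
Log2 difference between Adeno CRE m-cherry and Adeno m-cherry (y axis) for chains of collagen types I, III, V, IV and VI, with a symbol for each of the 4 replicate numbers and a black bar for their mean. *Col5a2* keeps its 4 symbols between -0.48 and -0.33 and *Col6a2* lies wholly below 0, while *Col4a1*, *Col1a1* and *Col3a1* have symbols on both sides.

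The type VI chains were mixed, with 3 lower and 3 higher and a median log2 fold change of 0.07. *Col6a1*, *Col6a2* and *Col6a3* encode the chains of the microfibrils around muscle fibres, and mutations of each cause inherited myopathies in humans. *Col6a1* read 4.08, 4.32, 4.17 and 4.63 in Adeno CRE m-cherry, against 4.21, 4.44, 4.41 and 4.62 in Adeno m-cherry. *Col6a2* read 2.76, 3.09, 2.65 and 2.79 in Adeno CRE m-cherry, against 3.52, 3.32, 2.90 and 3.23 in Adeno m-cherry. *Col6a3* read 4.20, 3.99, 4.17 and 3.64 in Adeno CRE m-cherry, against 3.78, 3.71, 3.58 and 3.90 in Adeno m-cherry. *Col6a2* was thus lower within each replicate number, *Col6a3* was higher in all but replicate 4, and *Col6a1* had differences of -0.24 to 0.01. The log2 fold change was -0.42 for *Col6a2* (SE 0.18, adjusted p 0.760), -0.12 for *Col6a1* (SE 0.18, adjusted p 0.924) and 0.26 for *Col6a3* (SE 0.18, adjusted p 0.826). *Col6a2* was read at the dim end of the array, with all 8 values under the median of the odorant receptor genes, and it passed the thresholds in 3 of 12 fits that left out an array or a replicate number. Of the chains that can replace the product of *Col6a3*, *Col6a4* and *Col6a6* had log2 fold changes of 0.32 and 0.30 (adjusted p 0.855 and 0.849), and *Col6a5* was at -0.15.

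All 4 transmembrane collagens were lower, at a median of -0.26 (log2 fold change). *Col25a1* encodes a membrane collagen of muscle that motor axons need to innervate it in mice. It read 8.33, 6.44, 5.31 and 5.10 in Adeno CRE m-cherry, against 9.22, 7.45, 5.88 and 5.74 in Adeno m-cherry. The replicate numbers kept the same order in both groups, with replicate 1 the highest and replicate 4 the lowest, so that the groups overlapped broadly although each Adeno CRE m-cherry array lay below its partner. The differences within replicates 1 to 4 were -0.89, -1.01, -0.57 and -0.64, and the mean was 6.29 ± 1.48 in Adeno CRE m-cherry and 7.07 ± 1.63 in Adeno m-cherry (SD, n = 4 each). This was a log2 fold change of -0.78, or 0.583 times the Adeno m-cherry level. Without the block its SE was 0.90 (95% confidence interval -2.80 to 1.25, adjusted p 0.899), and with the block its SE was 0.18 (-1.17 to -0.39, adjusted p 0.0872). The replicate number held 91.9% of the variance of *Col25a1* and the group 7.69%. With single arrays left out and no block the log2 fold change ran between -0.06 without Adeno m-cherry replicate 1 and -1.46 without Adeno CRE m-cherry replicate 1, and *Col25a1* passed the thresholds in 0 of 12 fits that left out an array or a replicate number. With the block it passed them in 4 of 4 fits that left out a replicate number.

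*Col13a1*, the collagen of the neuromuscular junction that helps to hold acetylcholine receptors in place, read 4.99, 4.82, 5.59 and 5.43 in Adeno CRE m-cherry, against 5.54, 5.80, 5.99 and 5.13 in Adeno m-cherry. It was lower in replicates 1 to 3 and higher in replicate 4, with a log2 fold change of -0.41 (SE 0.25, adjusted p 0.800, 0.439 with the block). *Col17a1*, of the junctions that anchor epithelia, and *Col23a1* had log2 fold changes of -0.12 and -0.06, each with at least 1 replicate number in which Adeno CRE m-cherry was higher.

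The multiplexins sit in the basement membrane zone. *Col15a1*, whose loss gives mice a mild myopathy, read 4.22, 4.24, 3.98 and 3.88 in Adeno CRE m-cherry, against 4.27, 4.28, 4.06 and 4.21 in Adeno m-cherry. It was lower within each replicate number, with differences of -0.05, -0.04, -0.08 and -0.33, and its log2 fold change was -0.12 (95% confidence interval -0.47 to 0.22). *Col18a1*, whose product is cut to release endostatin, read 7.31, 7.15, 4.90 and 5.56 in Adeno CRE m-cherry, against 6.09, 8.27, 5.59 and 5.93 in Adeno m-cherry. Replicates 1 and 2 were higher than replicates 3 and 4 in both groups, and the difference was 1.22 in replicate 1 but -1.12, -0.69 and -0.37 in the others. The *Col18a1* log2 fold change of -0.24 had the wide 95% confidence interval of -1.82 to 1.34.

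**Figure D3:**
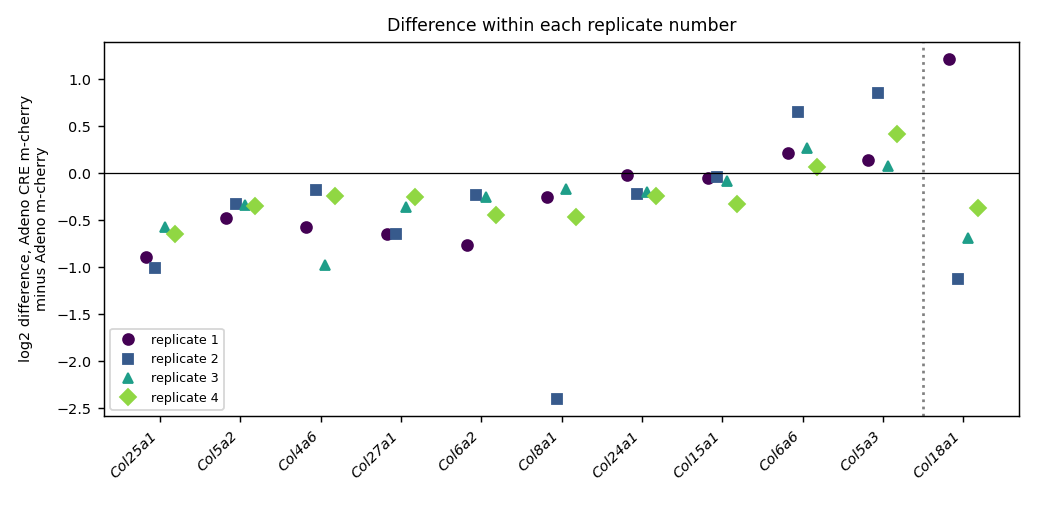
Log2 difference between Adeno CRE m-cherry and Adeno m-cherry (y axis) within each of the 4 replicate numbers, for the 8 collagen genes lower in all 4, the 2 higher in all 4 and, right of the dotted line, *Col18a1*. *Col25a1* lies between -1.01 and -0.57, *Col8a1* reaches -2.40 in replicate 2 against -0.46 to -0.17 in the others, and *Col18a1* is at 1.22 in replicate 1.

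Among the 8 fibril-associated chains, which decorate the surface of fibrils, 6 were lower and the median log2 fold change was -0.09, with a range of -0.20 to 0.15. In either fit 0 of the 8 were past the thresholds. Of all genes, 3.5% were past them and lower and 2.92% higher, and 8.2% and 6.54% with the block. *Col19a1*, which mouse embryos make for a short time in differentiating muscle, read 3.57, 3.40, 4.15 and 4.06 in Adeno CRE m-cherry, against 3.73, 3.74, 3.86 and 4.67 in Adeno m-cherry. *Col22a1*, a chain of the junction between muscle and tendon, read 3.98, 4.46, 4.68 and 4.95 in Adeno CRE m-cherry, against 4.76, 4.58, 4.87 and 4.52 in Adeno m-cherry. For both genes the groups overlapped, with log2 fold changes of -0.20 (SE 0.27) and -0.17 (SE 0.22). The 3 type IX chains of cartilage, *Col9a1*, *Col9a2* and *Col9a3*, lay between -0.16 and 0.03, *Col14a1* and *Col20a1* were at -0.02 and -0.15, and *Col16a1* was at 0.15.

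Of the 3 short-chain collagens, *Col8a1*, a chain of vessel walls and of the membrane behind the cornea, had the lowest log2 fold change of the 42 collagen genes. It read 3.75, 4.37, 3.59 and 3.60 in Adeno CRE m-cherry, against 4.00, 6.77, 3.76 and 4.06 in Adeno m-cherry. Adeno m-cherry replicate 2 stood far above the other 7 arrays, giving a difference of -2.40 where the other 3 were between -0.46 and -0.17. The log2 fold change of -0.82 (SE 0.61 without the block, adjusted p 0.839, and SE 0.33 with it, adjusted p 0.281) was -0.29 without replicate 2, where the gene no longer passed the thresholds with the block. Its partner chain *Col8a2* differed by -0.09 and *Col10a1*, the chain of hypertrophic cartilage, by 0.13. The remaining chains, *Col26a1* and *Col28a1*, were at -0.20 and -0.03.

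**Figure D4:**
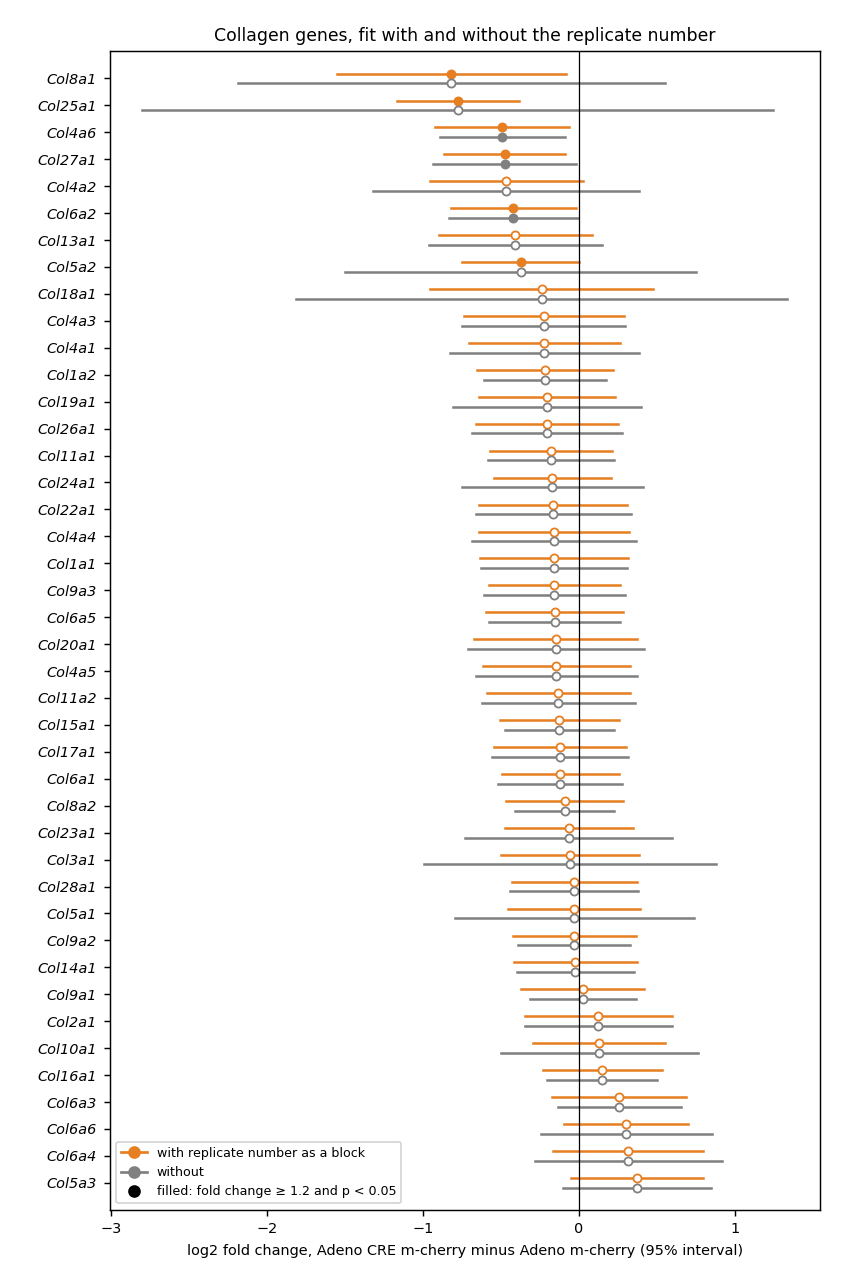
Log2 fold change of Adeno CRE m-cherry over Adeno m-cherry (x axis) with its 95% confidence interval for the 42 collagen genes, fitted with a block for the replicate number (orange, upper) and without it (grey, lower). Filled symbols mark the 6 and 3 genes past the thresholds of the study, and the interval of *Col25a1* narrows from between -2.80 and 1.25 without the block to between -1.17 and -0.39 with it.

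The stretch of 250 bases before the transcription start was examined for the genes past the thresholds in either fit, to show whether they share short motifs. The sequences are from RefSeq on GRCm38.p6, each printed in the direction of its gene, and capitals mark the motifs found on either strand. *Col25a1* is at chr3:130180595-130180844 (plus strand), *Col4a6* at chrX:141474077-141474326 (minus), *Col27a1* at chr4:63215162-63215411 (plus), *Col6a2* at chr10:76623631-76623880 (minus) and *Col8a1* at chr16:57754738-57754987 (minus). *Col5a2* had no entry in the table.
Col25a1: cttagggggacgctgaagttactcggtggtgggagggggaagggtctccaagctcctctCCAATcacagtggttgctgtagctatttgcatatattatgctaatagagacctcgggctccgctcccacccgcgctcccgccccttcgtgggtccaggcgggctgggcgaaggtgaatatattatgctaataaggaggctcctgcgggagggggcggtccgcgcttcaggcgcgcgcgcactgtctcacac
Col4a6: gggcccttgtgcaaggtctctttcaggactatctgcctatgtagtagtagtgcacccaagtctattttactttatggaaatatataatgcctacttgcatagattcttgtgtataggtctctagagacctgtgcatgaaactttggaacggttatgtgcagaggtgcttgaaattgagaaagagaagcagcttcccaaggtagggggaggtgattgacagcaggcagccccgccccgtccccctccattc
Col27a1: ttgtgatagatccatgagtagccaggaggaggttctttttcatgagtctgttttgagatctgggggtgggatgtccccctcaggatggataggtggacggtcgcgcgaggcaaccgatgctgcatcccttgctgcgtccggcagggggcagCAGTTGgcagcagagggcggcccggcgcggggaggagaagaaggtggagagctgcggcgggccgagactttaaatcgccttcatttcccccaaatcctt
Col6a2: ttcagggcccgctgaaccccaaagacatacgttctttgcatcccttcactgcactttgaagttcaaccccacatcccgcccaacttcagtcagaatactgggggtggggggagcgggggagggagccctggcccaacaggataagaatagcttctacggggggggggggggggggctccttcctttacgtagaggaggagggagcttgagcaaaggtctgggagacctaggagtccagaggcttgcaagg
Col8a1: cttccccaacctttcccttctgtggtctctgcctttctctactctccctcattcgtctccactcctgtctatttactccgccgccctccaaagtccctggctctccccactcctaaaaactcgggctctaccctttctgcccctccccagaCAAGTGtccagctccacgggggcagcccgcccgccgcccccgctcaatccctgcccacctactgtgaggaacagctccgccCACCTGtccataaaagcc

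The motifs searched were the E-box CANNTG, which myogenic factors bind, CCAAT, the AP-1 site TGANTCA, the CArG box that serum response factor binds, and TATAAA. None of the 5 motifs was in all of the 5 stretches. The capitals in *Col25a1* are a CCAAT, and those in *Col27a1* and *Col8a1* are E-boxes, 1 in *Col27a1* and 2 in *Col8a1*. *Col4a6* and *Col6a2* held 0 of the motifs. An entry was found for 34 of the 42 collagen genes, and 19 of these held an E-box in at least 1 stretch. Of all 32851 single stretches of this length, 66.2% held an E-box. A gene can have several stretches, so the counts per gene and the shares per stretch are not directly comparable. CCAAT was in 12 of the 34 (33.8% of all stretches), TATAAA in 5 (12.4%), AP-1 in 1 (6.75%) and the CArG box in 1 (1.47%). A match is a run of letters and not a measured binding site.

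The enzymes and chaperones that make collagen were read as well. Of 32 listed genes 29 were measured, and 20 of these had means above the 95th percentile of the odorant receptor genes. Of the 29, 18 were lower and 11 higher, with a median log2 fold change of -0.08. At the thresholds of the study 4 were lower (13.8%, against 3.5% of all genes) and 2 higher (6.90%, against 2.92%). With the replicate block 6 were lower (20.7%, against 8.2%) and 3 higher (10.3%, against 6.54%). The list thus held calls in both directions, and 0 of its genes had an adjusted p under 0.05 in either fit.

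The 4 genes that were lower at the thresholds without the block, *Plod2*, *P3h2*, *P4ha1* and *P4ha3*, encode hydroxylases. *Plod2*, the lysyl hydroxylase of the chain ends that form crosslinks, read 9.78, 8.77, 9.15 and 8.52 in Adeno CRE m-cherry, against 11.22, 10.00, 9.73 and 9.50 in Adeno m-cherry. Only replicate 1 of Adeno CRE m-cherry reached into the Adeno m-cherry range. *Plod2* had a log2 fold change of -1.06 (SE 0.40, adjusted p 0.748, 0.0545 with the block), or 0.480 times the Adeno m-cherry level, and it passed the thresholds in 8 of 12 fits that left out an array or a replicate number. *P3h2*, a prolyl 3-hydroxylase that acts on type IV collagen, read 7.39, 7.25, 6.43 and 6.82 in Adeno CRE m-cherry, against 8.45, 8.33, 7.71 and 7.25 in Adeno m-cherry. It was lower within each replicate number, with differences of -1.06, -1.08, -1.28 and -0.43. The *P3h2* log2 fold change was -0.96 (SE 0.31, adjusted p 0.729, 0.0691 with the block), and *P3h2* passed the thresholds in 12 of 12 such fits.

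*P4ha1* and *P4ha3* encode catalytic subunits of prolyl 4-hydroxylase, which stabilises the collagen helix. *P4ha1* read 8.91, 9.18, 8.71 and 9.07 in Adeno CRE m-cherry, against 10.41, 9.94, 9.49 and 9.06 in Adeno m-cherry, equal within 0.01 in replicate 4. *P4ha3* read 3.03, 2.72, 2.92 and 3.0 in Adeno CRE m-cherry, against 3.36, 3.07, 3.46 and 3.41 in Adeno m-cherry. The *P4ha3* groups did not overlap, but all 8 values lay under the median of the odorant receptor genes. Their log2 fold changes were -0.76 (SE 0.28, adjusted p 0.748) and -0.41 (SE 0.16, adjusted p 0.752). *P4ha1* passed the thresholds in 6 and *P4ha3* in 4 of 12 fits that left out an array or a replicate number.

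The 2 genes that were higher at the thresholds were *Kdelr3* and *Plod1*. *Kdelr3*, a receptor that returns chaperones to the endoplasmic reticulum, read 7.25, 6.69, 5.72 and 6.10 in Adeno CRE m-cherry, against 5.68, 5.49, 4.94 and 5.84 in Adeno m-cherry. It was higher within each replicate number, with a log2 fold change of 0.95 (SE 0.34, adjusted p 0.745), and it passed the thresholds in 8 of 12 fits that left out an array or a replicate number. *Plod1*, the lysyl hydroxylase of the helical part, read 4.62, 4.73, 5.11 and 4.83 in Adeno CRE m-cherry, against 4.69, 4.14, 4.28 and 4.30 in Adeno m-cherry. Its log2 fold change was 0.47 (SE 0.18, adjusted p 0.752), opposite in sign to that of *Plod2*, and it passed the thresholds in 4 of the 12 fits. The mean of *Plod1* over the 8 arrays (4.59) lay below the 95th percentile of the odorant receptor genes. *Serpinh1*, the collagen chaperone Hsp47, read 9.15, 7.64, 8.01 and 7.93 in Adeno CRE m-cherry, against 7.59, 7.53, 7.91 and 8.16 in Adeno m-cherry. The Adeno CRE m-cherry array of replicate 1 stood apart, and the log2 fold change of 0.39 (SE 0.32) was -0.01 without replicate 1.

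With the block, *Pcolce*, *Pcolce2* and *Sec24d* passed in addition. *Pcolce* and *Pcolce2* encode enhancers of the protease that trims the end of procollagen, and they differed in sign. *Pcolce* read 12.58, 11.40, 8.12 and 8.21 in Adeno CRE m-cherry, against 9.48, 10.92, 6.46 and 7.76 in Adeno m-cherry. It was higher within each replicate number by between 0.45 and 3.10, and its log2 fold change was 1.42 (SE 1.21 without the block and 0.38 with it, adjusted p 0.126 with it). With an array or a replicate number left out this was between 0.59, without Adeno CRE m-cherry replicate 1, and 2.18, without Adeno m-cherry replicate 2. *Pcolce2* read 3.46, 3.38, 3.25 and 5.12 in Adeno CRE m-cherry, against 3.75, 4.45, 3.72 and 6.05 in Adeno m-cherry, so that each replicate number was lower in Adeno CRE m-cherry, the groups overlapped, and replicate 4 was the highest array of both. Its log2 fold change was -0.69 (adjusted p 0.143 with the block), and -0.17 without Adeno m-cherry replicate 4. The mean of *Pcolce2* over the 8 arrays (4.15) lay below the 95th percentile of the odorant receptor genes. *Sec24d*, a subunit of the vesicle coat that exports procollagen, read 7.95, 7.88, 6.96 and 7.20 in Adeno CRE m-cherry, against 9.83, 8.54, 7.32 and 7.37 in Adeno m-cherry. The groups overlapped, and it was lower within each replicate number, most in replicate 1, with a log2 fold change of -0.77 (adjusted p 0.213 with the block) that was -0.40 without replicate 1, where it did not pass.

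Of the receptors of collagen, 8 of 10 listed were measured, and 6 were lower and 2 higher with a median log2 fold change of -0.15. Only 1 of the 8, *Itgb1*, had a mean above the 95th percentile of the odorant receptor genes. At the thresholds of the study 1 was lower (12.5%, against 3.5% of all genes), and with the replicate block 2 were (25%, against 8.2%). In both fits 0 were higher (against 2.92% of all genes, and 6.54% with the block). *Itgb1*, the beta subunit of all collagen-binding integrins, read 14.71, 15.18, 15.66 and 14.82 in Adeno CRE m-cherry, against 15.32, 15.94, 15.92 and 15.47 in Adeno m-cherry. It was lower within each replicate number while the groups overlapped. The *Itgb1* log2 fold change was -0.57 (SE 0.25, adjusted p 0.760, 0.171 with the block), and it passed the thresholds in 3 of 12 fits that left out an array or a replicate number and in 4 of 4 fits with the block. *Mrc2*, an endocytic receptor that takes up collagen, read 4.68, 4.63, 3.75 and 4.41 in Adeno CRE m-cherry, against 5.04, 6.14, 4.09 and 5.76 in Adeno m-cherry. Replicates 2 and 4 carried most of its log2 fold change of -0.89, which passed the thresholds with the block (adjusted p 0.128). *Itga11*, an alpha subunit of fibroblasts, and *Ddr2*, a receptor kinase for fibrillar collagen, had log2 fold changes of 0.05 (95% confidence interval -0.41 to 0.51) and -0.01 (-0.45 to 0.44).

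**Figure D5:**
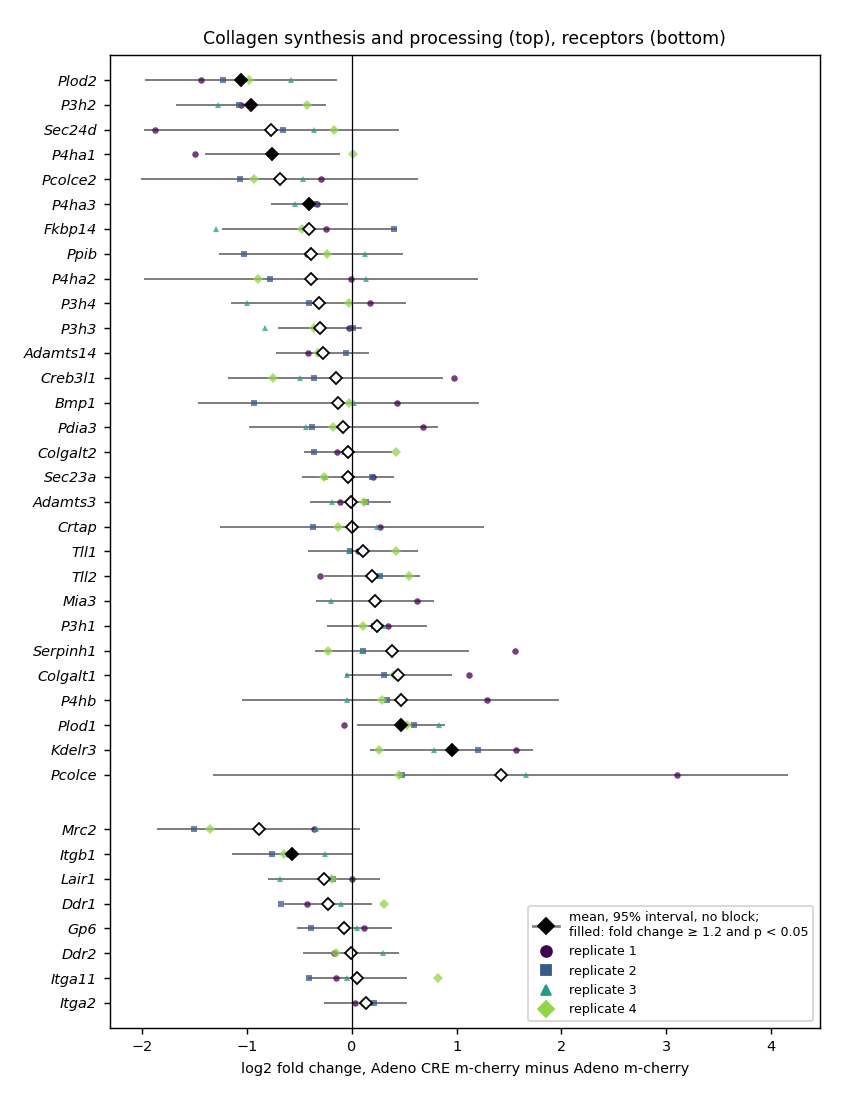
Log2 fold change of Adeno CRE m-cherry over Adeno m-cherry (x axis) for 29 genes of collagen synthesis and processing (upper block) and 8 receptors (lower block), with diamonds for the mean, lines for the 95% confidence interval without the replicate block and small symbols for the 4 replicate numbers. Filled diamonds, which mark genes past the thresholds of the study, lie at -1.06 for *Plod2* and -0.96 for *P3h2* but at 0.47 for *Plod1* and 0.95 for *Kdelr3*.

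Markers of other cell states were read in the same fits. Of the 10 myotube markers 8 were lower and 2 higher, and 2 of the lower ones were past the thresholds, where 3.5% of all genes were past them and lower. With the block 3 of the 10 were past them and lower (8.2% of all genes) and 1 was past them and higher (6.54% of all genes). *Myh3*, an embryonic myosin, and *Myog*, a transcription factor of differentiation, had an adjusted p under 0.05 with the block (0.0396 each, log2 fold changes -1.23 and -1.48), which no collagen gene had. The mean level of the myotube list was 14.8 to 16.0 across Adeno CRE m-cherry arrays and 15.2 to 16.1 across Adeno m-cherry arrays. Of the 6 satellite cell and myoblast markers 5 were lower, 0 of them past the thresholds without the block and 4 with it (66.7%, against 8.2% of all genes), and the list's mean level was 5.11 to 6.08 in Adeno CRE m-cherry and 5.68 to 6.48 in Adeno m-cherry. The part of these lists in the collagen differences was not tested. Among 11 fibroblast markers, none of them a collagen gene, 6 were higher and 5 lower, at a median of 0.00 (log2 fold change), with 0 past the thresholds in either fit. The 2 Schwann cell markers had a median of -0.05 and 0 past the thresholds. Macrophage markers (4 of 6 lower, mean level 3.78 to 4.01 in Adeno CRE m-cherry and 3.70 to 4.09 in Adeno m-cherry) and endothelial markers (2 of 6 lower, 3.50 to 3.84 in Adeno CRE m-cherry and 3.49 to 3.62 in Adeno m-cherry) read like odorant receptor genes. The replicate number held a median of 51.2% of the variance of a collagen gene and the group 9.27%. The medians over all genes were close, at 52.4% and 9.64%. The group held more than the replicate number for 5 of the 42 collagen genes, and for 3367 of all 19505 genes. The replicate number has 4 levels and the group 2, so these shares are not on an equal footing.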

How the data were processed

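RNA of cultured myotubes was measured on 8 Affymetrix arrays, 4 per group, grouped and numbered by the submitters' labels. The authors made the deposited log2 values with Affymetrix Expression Console and the RMA algorithm (versions not given in the sources used here), a method of background correction, quantile normalization and median polish of probes. Row identifiers belong to another array design than the one named in the study's methods, and the labels name a column kit where the methods name TRIzol for the RNA. Array medians were 4.78 to 4.87 and correlations between arrays 0.962 to 0.992. No detection calls were used, so the distance of dim rows to background is unknown.

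Of 22206 rows, 19572 paired with 1 gene symbol in the platform table and 2634 were unnamed. The brightest row stood for a gene, which left 19505 genes. All genes were fitted with limma 3.58.1 under R 4.3.3 by lmFit and eBayes. Tests were two-sided, p-values were adjusted by Benjamini-Hochberg over all of them, and the script was tested on simulated data. Fits with the replicate number as a block stand beside those without it. After removal of group means, arrays of the same number correlated at 0.516 to 0.623 and arrays of different numbers at -0.424 to 0.128, and on this basis, which no source states, the numbers were treated as pairs. The collagen genes, their classes, the other lists and the genes named were chosen with earlier results of these data known, and no list was tested as a set. Array values are given for genes past the thresholds in either fit, with *Sec24d* and *Mrc2* added after their values were seen, and for chains known from muscle. Promoters and motifs were read with Python 3.11.15 from RefSeq. Alternatives were the block, a repeated quantile normalization, centring of each array, a filter on dim genes, the mean over rows sharing a symbol, trend and robust settings, array weights, a gene-wise test with unequal variances, and each array or replicate number left out.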

Additional observations from a re-analysis of the deposited data

Results flagged for a closer look

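In 6 of the 84 groups of 4 arrays examined for the collagen genes, 1 array stood far from the other 3, where chance flags about 1 in 20 groups. *Col8a1* read 6.77 in Adeno m-cherry replicate 2 and 3.76 to 4.06 in the other Adeno m-cherry arrays. *Col4a1* read 4.41 in the same array and 3.68 to 3.80 in the others of its group. *Col4a2* read 4.90 in Adeno CRE m-cherry replicate 2, against 4.20 to 4.31 in the others. Adeno m-cherry replicate 4 was the array concerned for the remaining 3 genes. It read 4.67 for *Col19a1* (others 3.73 to 3.86), 3.46 for *Col27a1* (others 4.05 to 4.16) and 3.06 for *Col9a1* (others 3.33 to 3.36). Outside the collagen genes, *Pcolce2* read 5.12 in Adeno CRE m-cherry replicate 4 and 3.25 to 3.46 in the others of that group, and its Adeno m-cherry array of replicate 4 was also the highest of its group, at 6.05.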

How the results depend on the processing

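The number of collagen genes past the thresholds of the study was 3, all lower. It was 6 with the replicate block, these 3 included, 1 (*Col4a6*) with each array centred on its median and 0 among the 12 collagen genes left by a filter at the median level, which removes the 3 genes. The other 5 settings gave 2 or 3. Leaving out an array or a replicate number gave 0 to 4, with *Col6a3* or *Col6a4* counted as higher in 3 of these fits, 0 without replicate 1 or Adeno m-cherry replicate 1 and 1 without replicate 2, replicate 3, Adeno CRE m-cherry replicate 3 or Adeno m-cherry replicate 3. The share of all genes past the thresholds and lower moved in these fits as well, against 3.5% with all arrays. It ran from 2.04% without replicate 1 to 4.30% without Adeno CRE m-cherry replicate 3. With the block and a replicate number left out, it ran from 5.80% without replicate 2 to 8.57% without replicate 3. Among the collagen genes, leaving out a replicate number with the block gave 2 to 6, and 6 without replicate 4. The number at an adjusted p under 0.05 was 0 in all 24 alternatives. The median log2 fold change of -0.15 stayed below 0 in all of them, at -0.20 to -0.076 with an array or number left out, the value of -0.076 being that without Adeno m-cherry replicate 2. Over single genes, 23 of 42 kept their sign in every setting, among them *Col25a1*, *Col4a6*, *Col27a1*, *Col6a2* and *Col8a1*.

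The other 19, *Col5a2* among them, did not. Of the synthesis and receptor lists, only the genes named above were followed through the settings, and 3 of these changed sign. Sign changes of the remaining genes of those lists were not examined. With an array or replicate number left out, the log2 fold change was -0.025 to 0.32 for *Col10a1*, -0.25 to 0.07 for *Col11a2*, -0.08 to 0.084 for *Col14a1*, -0.28 to 0.0033 for *Col17a1*, -0.73 to 0.36 for *Col18a1* and -0.37 to 0.018 for *Col19a1*. It was -0.35 to 0.037 for *Col1a1*, -0.39 to 0.097 for *Col20a1*, -0.36 to 0.04 for *Col22a1*, -0.28 to 0.14 for *Col23a1*, -0.18 to 0.058 for *Col28a1* and -0.02 to 0.34 for *Col2a1*. It was -0.40 to 0.22 for *Col3a1*, -0.36 to 0.067 for *Col4a4*, -0.30 to 0.06 for *Col4a5*, -0.26 to 0.21 for *Col5a1*, -0.80 to 0.031 for *Col5a2*, -0.083 to 0.093 for *Col9a1* and -0.077 to 0.08 for *Col9a2*. For *Serpinh1* it was -0.0067 to 0.59, for *Itga11* -0.20 to 0.21 and for *Ddr2* -0.11 to 0.13. Array weights gave 0.017 for *Col14a1*, 0.011 for *Col23a1*, 0.011 for *Col9a2* and 0.021 for *Ddr2*, and a repeated quantile normalization 0.023 for *Col28a1*. The cause of these changes was not tested. The means of 31 of 42 collagen genes lay below the 95th percentile of the odorant receptor genes, and how much of such dim readings is signal was not measured.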
